A study of Mus musculus with 24 samples.

Results

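The transcription factor NRF2 and the antioxidant enzymes around it were followed as a list of 40 genes in the lungs and retinas of newborn mice with and without gasdermin D (GSDMD). The list was set by gene symbol, and all 40 were found among the 36109 genes of the lung table and the 36595 genes of the retina table. Of these, 39 had enough reads to be tested in each tissue. Gsta1 was not tested in the lung, where it lay between 0 and 0.307 CPM (counts per 1000000 counts of the library), and Gpx2 was not tested in the retina, where it lay between 0 and 0.636 CPM.

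The mice were C57/B6 GSDMD-KO pups, which carry a deletion of 38 bp in exon 5 of Gsdmd in every cell, and their wildtype (WT) littermates from matings of heterozygotes. For the lung, pups breathed room air (RA, 21% O2) or hyperoxia (85% O2) from postnatal day 1 to 14, and lungs were collected on day 15. For the retina, the O2 pups were kept in 75% O2 from day 7 to 12 and then in room air until collection on day 18, so these retinas were sampled after recovery, whereas the lungs were sampled 1 day after hyperoxia ended. Each of the 4 groups (WT-RA, WT-O2, KO-RA and KO-O2) had 3 mice per tissue. Because the knockout is global, no value can be tied to the loss of GSDMD in 1 cell type, and in whole tissue fewer cells of a type and less RNA per cell cannot be told apart.

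NRF2, encoded by Nfe2l2, is held in the cytoplasm and sent for degradation by KEAP1 in unstressed cells. When oxidants or electrophiles modify KEAP1, NRF2 accumulates without needing new transcription of its own gene, enters the nucleus and binds antioxidant response elements with small MAF partners. Its known targets make glutathione, regenerate thioredoxin, supply NADPH, and detoxify quinones, heme and iron. In the lung this program is known as a defense against high oxygen.

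The core of the antioxidant response element, TGACNNNGC, was searched on both strands of promoter windows of 300 bases (250 before and 50 after the gene start; RefSeq, GRCm38.p6). A window was found for 33 of the 40 members, and 11 of these 33 (33.3%) held the core, compared with 14% of 27025 genes with a window. Counted by windows, 11 of 42 member windows (26.2%) held it, compared with 12.4% of 32851. Among members that rose in WT lungs, 9 of the 24 with a window held it. Of the 11 members that rose at least 2-fold in the lungs of both genotypes, 9 had a window. In 4 of these the core was found, and the windows of those genes, Srxn1, Txnrd1, Me1 and Mt2, are shown for that reason. The letters were not found in the windows of the other 5, which were Gpx2, Mt1, Nqo1, Osgin1 and Slc7a11. The window of Nfe2l2, which also held the core, is shown because it is the central regulator, whose own transcript did not pass the test in the lung. Each is written 5′ to 3′ on the strand of the gene, with the core in capitals. A letter match describes these windows and does not show binding.
Srxn1 (chr2:152105274-152105573, plus strand): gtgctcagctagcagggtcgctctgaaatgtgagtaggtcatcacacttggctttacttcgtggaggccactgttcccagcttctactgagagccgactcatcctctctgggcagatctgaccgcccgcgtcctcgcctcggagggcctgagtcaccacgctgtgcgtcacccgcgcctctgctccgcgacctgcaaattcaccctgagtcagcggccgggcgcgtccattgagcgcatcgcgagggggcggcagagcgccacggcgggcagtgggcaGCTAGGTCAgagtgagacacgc
Txnrd1 (chr10:82858956-82859255, plus strand): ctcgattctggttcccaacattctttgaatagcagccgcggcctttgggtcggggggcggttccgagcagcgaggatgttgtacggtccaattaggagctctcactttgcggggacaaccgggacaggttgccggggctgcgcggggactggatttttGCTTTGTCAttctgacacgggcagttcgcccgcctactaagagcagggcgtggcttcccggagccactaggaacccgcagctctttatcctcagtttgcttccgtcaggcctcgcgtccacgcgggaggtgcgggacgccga
Me1 (chr9:86695865-86696164, minus strand): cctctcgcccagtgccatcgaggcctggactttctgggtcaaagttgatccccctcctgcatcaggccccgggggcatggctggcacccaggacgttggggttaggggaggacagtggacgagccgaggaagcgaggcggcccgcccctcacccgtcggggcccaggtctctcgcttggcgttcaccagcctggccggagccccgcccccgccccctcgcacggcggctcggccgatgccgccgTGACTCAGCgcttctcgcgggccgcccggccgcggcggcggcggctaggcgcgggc
Mt2 (chr8:94172368-94172667, plus strand): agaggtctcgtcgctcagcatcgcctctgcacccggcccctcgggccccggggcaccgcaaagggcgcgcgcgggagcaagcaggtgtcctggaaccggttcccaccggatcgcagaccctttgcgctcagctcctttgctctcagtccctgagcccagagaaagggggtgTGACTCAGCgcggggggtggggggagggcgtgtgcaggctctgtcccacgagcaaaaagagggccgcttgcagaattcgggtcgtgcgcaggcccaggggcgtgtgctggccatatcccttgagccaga
Nfe2l2 (chr2:75704614-75704913, minus strand): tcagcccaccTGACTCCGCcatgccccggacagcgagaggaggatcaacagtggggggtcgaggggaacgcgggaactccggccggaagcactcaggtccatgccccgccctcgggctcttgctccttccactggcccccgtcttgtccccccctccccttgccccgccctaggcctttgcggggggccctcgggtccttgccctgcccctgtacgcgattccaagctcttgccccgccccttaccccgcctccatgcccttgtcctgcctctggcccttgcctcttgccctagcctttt
In Me1 and Mt2 the core was the same run of letters, TGACTCAGC, while Srxn1 and Txnrd1 held it on the opposite strand as GCTAGGTCA and GCTTTGTCA. The Srxn1 match began 28 bases after the gene start. The Srxn1 window also holds TGAGTCAGC, which has G in place of the C of TGAC and was not searched for. Other windows of Txnrd1 and Me1 held no match and are not shown.

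Levels are given as CPM after library scaling, and differences as log2 fold changes ± SE. A gene passed where its adjusted p in edgeR was under 0.1. Tissue identity was clear from marker genes: 8 alveolar epithelial genes summed to 15100 to 24500 CPM in the lungs and 8 photoreceptor genes to 51900 to 76800 CPM in the retinas. Gsdmd lay at 40.6 to 42.3 CPM in WT-RA lungs and 22.6 to 24.8 CPM in KO-RA lungs, and at 32.1 to 36.4 CPM in WT-O2 and 11.7 to 16.3 CPM in KO-O2 lungs, so the lungs labelled GSDMD-KO had less of it in both exposures. In the retina it lay at 0.419 to 5.70 CPM in WT and 0.636 to 2.95 CPM in GSDMD-KO mice, which overlap. A count per gene includes reads outside the deleted bases and therefore checks the labels only in part.

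Hyperoxia raised most of the antioxidant list in the lung, in both genotypes. In WT lungs 31 of 39 members passed, 29 of them higher and 2 lower, in a tissue in which 49.2% of all tested genes passed, 24.5% higher and 24.7% lower. In GSDMD-KO lungs 29 of 39 passed, 27 higher and 2 lower, where 46.7% of all tested genes passed, 23.3% higher and 23.4% lower. The median log2 fold change of the members was 0.53 in WT and 0.47 in GSDMD-KO lungs, compared with -0.01 over all genes in each. At least 2-fold, 12 members rose in WT and 11 in GSDMD-KO lungs, against 5.04% and 4.57% of all genes, and no member fell that far. The O2 and RA mice did not overlap for 31 of 39 members in each genotype, against 49.8% of all genes in WT and 52.4% in GSDMD-KO lungs.

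**Figure D1:**
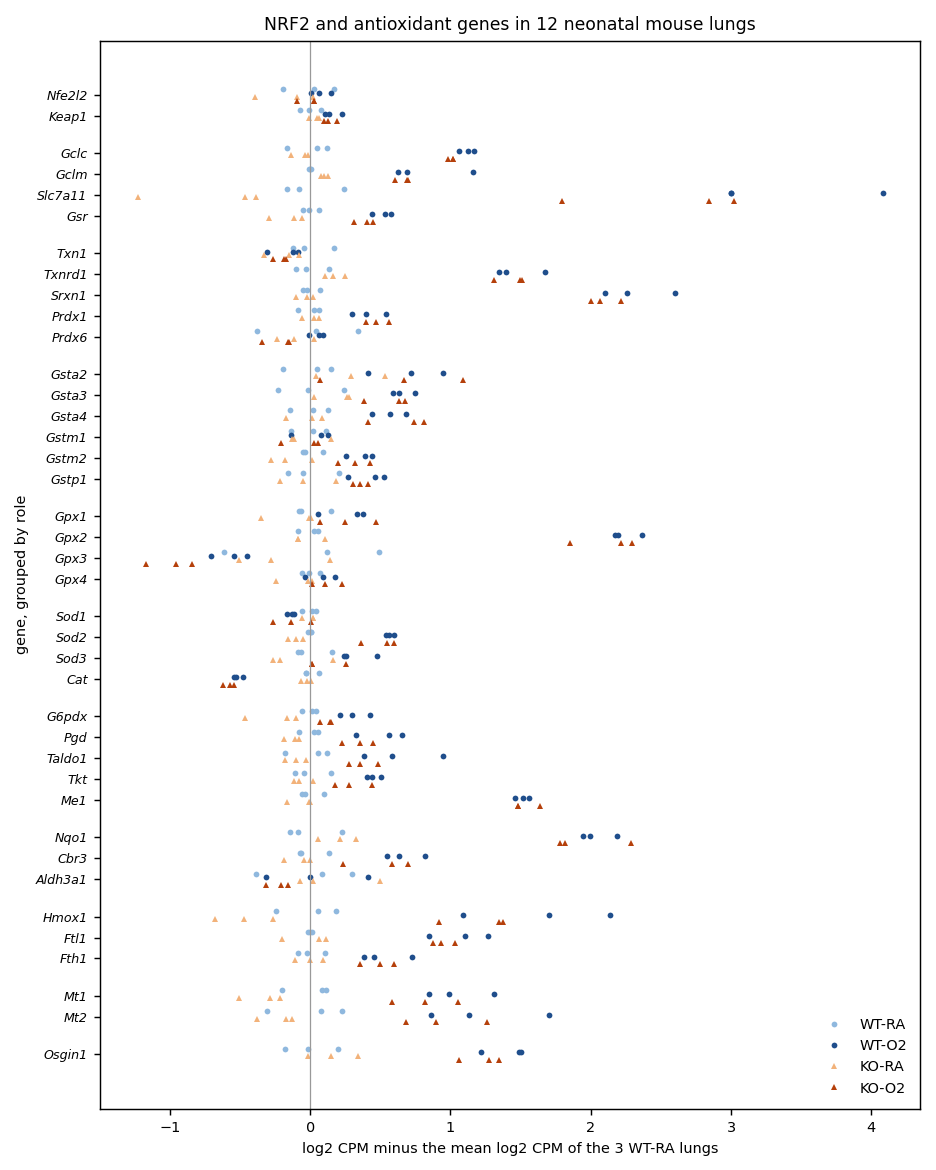
Level of 39 members in 12 lungs, as log2 CPM minus the mean log2 CPM of the 3 WT-RA lungs (horizontal axis), with 1 point per mouse and genes grouped by role (vertical axis). Dark symbols (hyperoxia) lie to the right of pale symbols (room air) for most genes in both genotypes, with Slc7a11, Srxn1 and Gpx2 farthest to the right and Cat and Gpx3 to the left.

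The regulators themselves showed small differences. Nfe2l2 lay at 149 to 192 CPM in WT-RA and 171 to 189 CPM in WT-O2 lungs, and at 130 to 173 and 160 to 174 CPM in KO-RA and KO-O2 lungs. These ranges overlap, and its log2 fold change was 0.06 ± 0.11 in WT (adjusted p = 0.673) and 0.14 ± 0.11 in GSDMD-KO lungs (adjusted p = 0.347). Keap1, its inhibitor, rose by 0.16 ± 0.07 on the log2 scale in WT lungs (adjusted p = 0.0954). It stood at 0.11 ± 0.07 in GSDMD-KO lungs without passing (adjusted p = 0.259). The WT call was lost without any 1 mouse other than WT-RA replicate 3, WT-O2 replicate 2 and KO-RA replicate 3, with adjusted p up to 0.27.

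All 4 genes of glutathione supply rose in both genotypes. Slc7a11, the cystine importer subunit that feeds glutathione synthesis, lay at 2.00, 2.13 and 2.66 CPM in WT-RA and at 18, 18 and 38.1 CPM in WT-O2 lungs. In GSDMD-KO lungs it went from 0.957, 1.63 and 1.72 CPM in room air to 7.79, 16.1 and 18.2 CPM in hyperoxia. Every hyperoxic lung was above every room-air lung, and this was the largest log2 fold change of the list, 3.45 ± 0.41 in WT (adjusted p = 6.2e-05) and 3.28 ± 0.43 in GSDMD-KO lungs (adjusted p = 0.000138). The WT-O2 lungs were spread widely, with 1 mouse well above the other two.

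Gclc encodes the catalytic subunit of glutamate-cysteine ligase, the first and limiting step of glutathione synthesis. It lay at 86.4, 99.8 and 105 CPM in WT-RA and at 202, 211 and 217 CPM in WT-O2 lungs, and at 88.0, 94.4 and 95.8 CPM in KO-RA and 191, 196 and 196 CPM in KO-O2 lungs. The groups were far apart and tight, with log2 fold changes of 1.11 ± 0.08 and 1.07 ± 0.08. The modifier subunit Gclm rose less, by 0.85 ± 0.11 on the log2 scale in WT and 0.56 ± 0.11 in GSDMD-KO lungs. Gsr, which reduces oxidized glutathione, rose by 0.52 ± 0.08 and 0.54 ± 0.08.

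In the thioredoxin arm, 3 of 5 members rose in both genotypes. Srxn1, or sulfiredoxin, which repairs overoxidized peroxiredoxins, lay at 10.3, 10.5 and 11.2 CPM in WT-RA and at 45.7, 50.9 and 64.7 CPM in WT-O2 lungs. In GSDMD-KO lungs it lay at 9.94, 10.5 and 10.8 CPM in room air and at 42.7, 44.6 and 49.5 CPM in hyperoxia. Room-air lungs of both genotypes sat within a narrow band and all hyperoxic lungs were well above it, with log2 fold changes of 2.33 ± 0.12 (adjusted p = 6.41e-09) and 2.13 ± 0.12 (adjusted p = 1.49e-08). Txnrd1, the cytosolic thioredoxin reductase, lay at 42.8, 45.1 and 50.5 CPM in WT-RA and 117, 121 and 147 CPM in WT-O2 lungs. Its log2 fold change was 1.48 ± 0.10 in WT and 1.26 ± 0.10 in GSDMD-KO lungs. Prdx1, a peroxiredoxin that reduces hydrogen peroxide, rose by 0.41 ± 0.08 and 0.47 ± 0.08. Txn1, thioredoxin itself, and Prdx6, which also reduces phospholipid peroxides, did not pass in either genotype, with log2 fold changes of -0.18 ± 0.09 and 0.02 ± 0.14 in WT lungs.

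The glutathione transferases, which conjugate electrophiles to glutathione, rose modestly. Of the 6 tested, Gsta3, Gsta4, Gstm2 and Gstp1 rose in both genotypes, by log2 fold changes between 0.36 and 0.68. Gsta2 passed only in WT lungs (0.70 ± 0.26, adjusted p = 0.0411) and stood at 0.37 ± 0.26 in GSDMD-KO lungs (adjusted p = 0.27). The difference between these responses was -0.33 ± 0.36 (interaction, adjusted p = 0.93), and the WT call was lost without WT-RA replicate 3 or WT-O2 replicate 1. Gstm1 passed in neither, at 0.02 ± 0.11 and -0.01 ± 0.11. Gsta1 and Gsta2 are near-identical copies, and reads could be split between them by the counting. Gstp1 took 90% of the reads of its copy family in the lung, so its value is less exposed to that.

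The peroxidases went in different directions. Gpx2, the glutathione peroxidase best known from epithelia, lay at 8.53, 9.21 and 9.42 CPM in WT-RA and at 40.7, 41.4 and 46.7 CPM in WT-O2 lungs, and at 8.51, 8.51 and 9.72 CPM in KO-RA and 32.7, 42.1 and 44.4 CPM in KO-O2 lungs. The groups did not overlap, and the log2 fold change was 2.24 ± 0.12 in WT (adjusted p = 7.48e-09) and 2.16 ± 0.12 in GSDMD-KO lungs (adjusted p = 1.46e-08). Gpx3, the secreted plasma peroxidase, was lower in hyperoxia. It lay at 582, 968 and 1250 CPM in WT-RA and 545, 611 and 650 CPM in WT-O2 lungs, which overlap because of 1 room-air lung. In GSDMD-KO lungs the groups were apart, with 627, 734 and 981 CPM in room air and 395, 458 and 496 CPM in hyperoxia. The log2 fold change was -0.63 ± 0.24 in WT (adjusted p = 0.0551) and -0.80 ± 0.24 in GSDMD-KO lungs (adjusted p = 0.0221). The WT call rested on single mice: it stood at -0.36 (adjusted p = 0.22) without WT-RA replicate 1, and was also lost without WT-RA replicate 2, WT-O2 replicate 1 or WT-O2 replicate 2. Gpx4, which reduces lipid hydroperoxides, passed in neither genotype (0.08 ± 0.09 and 0.19 ± 0.09). Gpx1, the abundant cytosolic peroxidase, passed in GSDMD-KO lungs (0.38 ± 0.13, adjusted p = 0.0279) and stood at 0.26 ± 0.13 in WT lungs (adjusted p = 0.11), and the difference between these responses was 0.12 ± 0.18 (interaction, adjusted p = 0.959). The Gpx1 call was lost without KO-RA replicate 3 or KO-O2 replicate 2.

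Among the 3 superoxide dismutases and catalase, only mitochondrial Sod2 rose in both genotypes. It lay at 66.0, 66.9 and 67.0 CPM in WT-RA and at 97.1, 98.5 and 101 CPM in WT-O2 lungs, and hyperoxia raised it by 0.57 ± 0.07 on the log2 scale in WT mice and by 0.61 ± 0.07 in GSDMD-KO mice. Catalase moved the other way. Cat lay at 297, 298 and 317 CPM in WT-RA and 208, 211 and 218 CPM in WT-O2 lungs, and at 290, 299 and 305 CPM in KO-RA and 197, 204 and 209 CPM in KO-O2 lungs. All 6 hyperoxic lungs were below all 6 room-air lungs, with log2 fold changes of -0.52 ± 0.07 (adjusted p = 3.57e-05) and -0.55 ± 0.07 (adjusted p = 2.18e-05). Cytosolic Sod1 did not pass (-0.14 ± 0.08 and -0.12 ± 0.08). Extracellular Sod3 passed in WT lungs at 0.32 ± 0.12 (adjusted p = 0.0438) and stood at 0.19 ± 0.12 in GSDMD-KO lungs (adjusted p = 0.23). The difference between these Sod3 responses was -0.13 ± 0.17 (interaction, adjusted p = 0.944), and the WT call was lost without WT-RA replicate 1 or 2 or WT-O2 replicate 2.

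The summed level of the alveolar epithelial genes was also lower in hyperoxia, at 21600 to 24500 CPM in the 6 room-air lungs and 15100 to 18500 CPM in the 6 hyperoxic lungs, with all 8 genes measured. Endothelial genes summed to 4350 to 4700 CPM in WT-RA and 3360 to 3700 CPM in WT-O2 lungs. In KO-RA and KO-O2 lungs they summed to 3920 to 4130 and 3070 to 3860 CPM. Airway secretory genes summed to 11800 to 14200 CPM in WT-RA and 9880 to 10500 CPM in WT-O2 lungs. In KO-RA and KO-O2 lungs they summed to 11200 to 14200 and 7470 to 11200 CPM. The part of these cells in the fall of Cat and Gpx3 was not tested.

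All 5 members of the malic enzyme and pentose phosphate group rose in both genotypes. Me1, the cytosolic malic enzyme, lay at 54.6, 55.4 and 61.1 CPM in WT-RA and 157, 163 and 168 CPM in WT-O2 lungs, and at 50.9, 56.6 and 57 CPM in KO-RA and 159, 159 and 177 CPM in KO-O2 lungs. It had the largest log2 fold change of the 5, at 1.51 ± 0.08 for WT and 1.59 ± 0.08 for GSDMD-KO mice. The pentose phosphate enzymes G6pdx, Pgd, Taldo1 and Tkt rose less, by log2 fold changes of 0.32 to 0.65 in WT and 0.36 to 0.48 in GSDMD-KO lungs.

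Of the quinone and carbonyl enzymes, Nqo1 and Cbr3 rose in both genotypes and Aldh3a1 in neither. Nqo1, the quinone reductase often used to read NRF2 activity, lay at 2.13, 2.22 and 2.76 CPM in WT-RA and at 9.08, 9.38 and 10.7 CPM in WT-O2 lungs, and at 2.45, 2.73 and 2.95 CPM in KO-RA and 8.07, 8.29 and 11.5 CPM in KO-O2 lungs. The log2 fold change was 2.04 ± 0.18 in WT (adjusted p = 6.15e-07) and 1.78 ± 0.17 in GSDMD-KO lungs (adjusted p = 2.48e-06). Cbr3, a carbonyl reductase, rose by 0.67 ± 0.14 and 0.60 ± 0.14. Aldh3a1, an aldehyde dehydrogenase, stood at 0.03 ± 0.21 and -0.40 ± 0.21.

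The heme and iron genes rose in both genotypes. Hmox1, or heme oxygenase-1, which breaks down heme, lay at 34.6, 42.6 and 46.6 CPM in WT-RA and at 87.3, 133 and 180 CPM in WT-O2 lungs. In GSDMD-KO lungs it lay at 25.6, 29.5 and 34.0 CPM in room air and at 77.2, 104 and 106 CPM in hyperoxia. No hyperoxic lung overlapped a room-air lung, and the log2 fold changes were 1.70 ± 0.24 (adjusted p = 0.000247) and 1.69 ± 0.24 (adjusted p = 0.000296). The ferritin light chain Ftl1 rose by 1.08 ± 0.11 and 0.95 ± 0.11, and the heavy chain Fth1, its partner in iron storage, by 0.53 ± 0.11 and 0.49 ± 0.11.

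The metallothioneins, which bind zinc and other metals, rose at least 2-fold in both genotypes. Mt1 rose by 1.05 ± 0.14 in WT and 1.16 ± 0.14 in GSDMD-KO lungs, and Mt2 by 1.26 ± 0.21 and 1.19 ± 0.22. Osgin1, an oxidative stress-induced growth inhibitor, lay at 11.6, 13.0 and 15.1 CPM in WT-RA and 30.6, 37.0 and 37.2 CPM in WT-O2 lungs, without overlap. Its log2 fold change was 1.40 ± 0.13 in WT and 1.06 ± 0.13 in GSDMD-KO lungs.

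**Figure D2:**
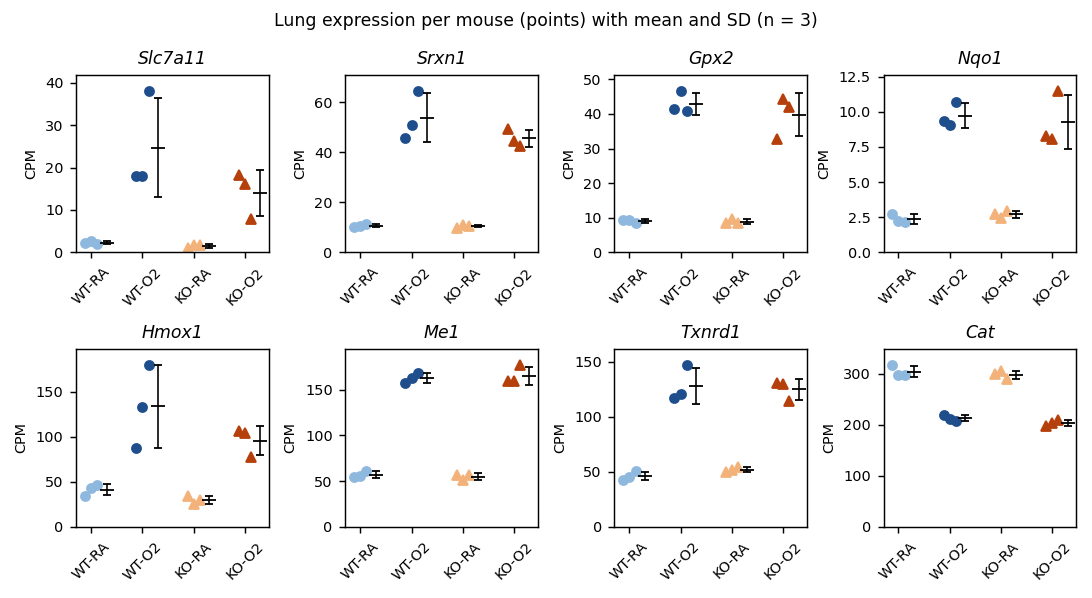
CPM per mouse (vertical axis, from 0) in the 4 lung groups (horizontal axis) for 8 members, with the mean and SD of 3 mice beside the points. For 7 of the genes all hyperoxic lungs lie above all room-air lungs in each genotype, and for Cat they lie below, at 197 to 218 CPM against 290 to 317 CPM.

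The question of whether loss of GSDMD changed this response was addressed by comparing genotypes directly. No member passed between KO-O2 and WT-O2 lungs (0.0416% of all genes did), between KO-RA and WT-RA lungs (0.488%), or in the interaction of genotype and hyperoxia (0.00595%). Members with an unadjusted p under 0.05 in edgeR numbered 3, 2 and 0 in these comparisons, against 6.21%, 10.5% and 6.72% of all genes, and DESeq2 also called 0 in each. The 3 members between hyperoxic lungs were Slc7a11, Srxn1 and Taldo1, all lower in KO-O2. Slc7a11 differed by -0.82 ± 0.35 on the log2 scale, with a 95% interval from -1.59 to -0.04 (adjusted p = 0.78). Srxn1 differed by -0.24 ± 0.11 (adjusted p = 0.8) and Taldo1 by -0.28 ± 0.12 (adjusted p = 0.781). The 2 between room-air lungs were G6pdx (-0.24 ± 0.09) and Mt1 (-0.34 ± 0.14).

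The intervals limit how large a genotype difference could be. For 38 of 39 members the 95% interval of the KO-O2 against WT-O2 difference lay within 1 log2 unit of 0, and for 30 within 0.5. For the interaction these numbers were 36 and 24. Hmox1 in hyperoxia differed by -0.48 ± 0.23, with an interval from -0.999 to 0.03, and Nqo1 by -0.07 ± 0.16, with an interval from -0.41 to 0.28. By sign alone, 33 of 39 members were lower in KO-O2 than in WT-O2 lungs, with a median of -0.11, compared with a median of -0.001 over all genes. With 1 mouse left out this number was 27 (without KO-O2 replicate 1) to 35, and members of 1 library vary together, so the signs are not independent. A lean of the same sign was present in room air, where 29 genotype differences were negative and 9 positive (median -0.065). For the interaction 26 were negative and 13 positive (median -0.049). The count in hyperoxia therefore does not by itself show a weaker response to hyperoxia.

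**Figure D3:**
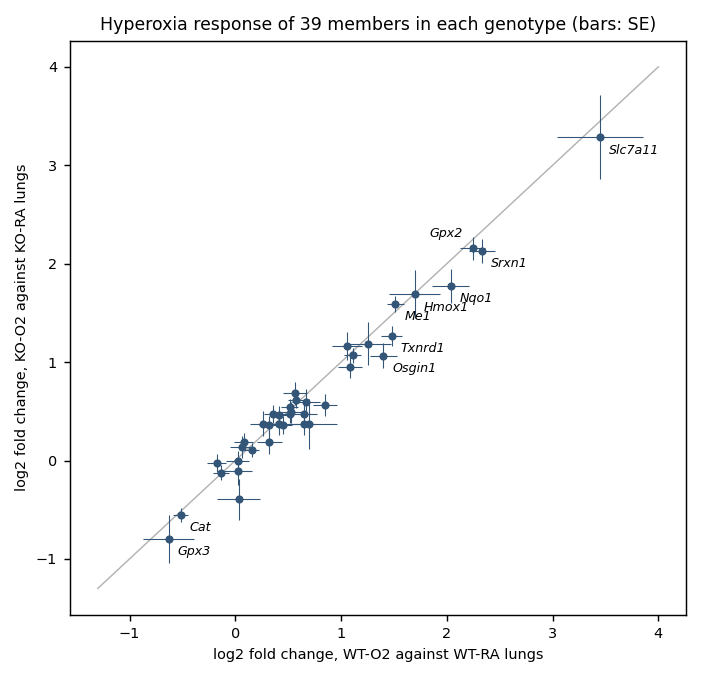
Log2 fold change with hyperoxia in GSDMD-KO lungs (vertical axis) against WT lungs (horizontal axis) for 39 members, with SE bars and the line of equal response. The members lie close to the line, from Gpx3 at the lower left to Slc7a11 at the upper right.

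Across the 39 members, the responses of the 2 genotypes had a Pearson r of 0.985 and a Spearman rho of 0.959, the same sign in 36, and a median absolute difference of 0.11 log2 units. These are descriptions across genes, which share libraries and are not independent, and the genotypes share no mice. Of the 39, 26 rose in both, 2 fell in both, 3 passed in WT only (Gsta2, Keap1 and Sod3), 1 in GSDMD-KO only (Gpx1) and 7 in neither (Nfe2l2, Txn1, Prdx6, Gstm1, Gpx4, Sod1 and Aldh3a1).

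Other cell types differed between these lungs. The 10 erythroid genes summed to 15800 to 18200 CPM in WT-RA, 2920 to 4160 CPM in WT-O2, 12700 to 26900 CPM in KO-RA and 26300, 30000 and 5980 CPM in KO-O2 lungs. The 10 macrophage genes summed to 560 to 980 CPM in WT-RA and 306 to 346 CPM in KO-RA lungs. In hyperoxia they summed to 532 to 722 CPM in WT-O2 and 418 to 568 CPM in KO-O2 lungs. Such a sum is weighted to its most abundant genes, and most single genes rose with hyperoxia. For WT mice 8 passed higher and 1 lower (median 0.774, lowest -2.536 on the log2 scale), against 24.5% and 24.7% of all genes. For GSDMD-KO mice 9 passed higher and 0 lower (median 0.855), against 23.3% and 23.4% of all genes. Between genotypes in room air, all 10 were lower without GSDMD (median -0.407, lowest -2.6), and 1 passed, against 0.488% of all genes. The 7 liver genes summed to 163 CPM in KO-O2 replicate 1 and to 1.69 to 6.55 CPM in the other 11 lungs. Hmox1, which macrophages express strongly, differed between KO-RA and WT-RA lungs by -0.48 ± 0.24 without passing (adjusted p = 0.539). The part of these cells in the members' values was not tested. Without KO-O2 replicate 1 or any other single mouse, the number of members passing between genotypes in the lung stayed at 0.

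A wider list of 81 pathway genes outside the 40 moved in both directions. In WT lungs 38 of 80 tested passed, 25 higher and 13 lower, and the median change over all 80 was 0.12 on the log2 scale. Over all tested genes 49.2% passed there, 24.5% higher and 24.7% lower. In GSDMD-KO lungs 42 passed, 30 higher and 12 lower, with a median of 0.11. Over all genes 46.7% passed there, 23.3% higher and 23.4% lower. The totals lie near the share over all genes, but more of the pathway genes that passed were higher than lower. The smallest p-values belonged to detoxifying enzymes. Akr1b8, an aldo-keto reductase, lay at 10.9, 11.1 and 13.2 CPM in WT-RA and at 97.5, 112 and 119 CPM in WT-O2 lungs, and its log2 fold change was 3.22 ± 0.11 in WT and 3.27 ± 0.11 in GSDMD-KO lungs. Ephx1, or microsomal epoxide hydrolase, rose by 1.27 ± 0.08 in both, and the glucuronosyltransferase Ugt1a6a by 1.12 ± 0.09 and 1.04 ± 0.09.

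Of 9 tested sources of superoxide and peroxide, 2 passed higher and 4 lower in WT lungs (median -0.244 on the log2 scale). In GSDMD-KO lungs 1 passed higher and 4 lower (median -0.009). Over all genes 24.5% passed higher and 24.7% lower in WT lungs, and 23.3% and 23.4% in GSDMD-KO lungs. Nox4, an NADPH oxidase that is active without stimulation, rose by 0.65 ± 0.10 in WT and 0.74 ± 0.10 in GSDMD-KO lungs. Cybb, the catalytic subunit of the phagocyte oxidase, lay at 40.9, 40.9 and 46.8 CPM in WT-RA, 30.8, 32.4 and 34.3 CPM in WT-O2, 27.9, 28.5 and 30.9 CPM in KO-RA, and 28.6, 30.4 and 34.5 CPM in KO-O2 lungs. WT-RA lungs stood above the other 3 groups. Cybb was the only pathway gene that passed between genotypes in room air (-0.56 ± 0.09, adjusted p = 0.0292), beside the lower macrophage sum of KO-RA lungs, and its interaction did not pass (0.50 ± 0.13, adjusted p = 0.389). Nnt, a mitochondrial NADPH source known to be disrupted in a C57BL/6 substrain, was listed under 2 identifiers, neither of which passed in any comparison in either tissue.

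In the retina few antioxidant genes passed the test, as did few genes of the whole table. A gene that did not pass may still have changed. In WT retinas 3 of 39 members passed, 1 higher and 2 lower, where 5.16% of all tested genes passed, 3.11% higher and 2.05% lower. In GSDMD-KO retinas 1 of 39 passed, where 7.82% of all genes did, 4.38% higher and 3.44% lower. Members with an unadjusted p under 0.05 numbered 11 in WT and 8 in GSDMD-KO retinas, against 17.4% and 20.3% of all genes. The median log2 fold change was -0.14 in WT and 0.00 in GSDMD-KO retinas, where that of all genes was 0.00.

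Retina libraries differed in lens content, and this touched several members. The 10 lens genes, mostly crystallins, summed to 31900 and 95800 CPM in WT-RA replicates 2 and 3 and to 55400 CPM in KO-RA replicate 3, compared with 4.13 to 344 CPM in the other 9. KO-RA replicate 3 also had the highest sum of 7 pigment epithelium genes, 678 CPM against 33.8 to 187 CPM elsewhere. Values from a fit without these 3 room-air libraries are given beside many, but not all, of the retina results described for single genes. That fit leaves 1 WT-RA mouse, which is assumed to vary like the other groups.

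Hmox1 was high in the lens-bearing libraries. It lay at 4.32, 62.4 and 158 CPM in WT-RA, 28.7, 36.2 and 65.1 CPM in WT-O2, 2.97, 3.30 and 204 CPM in KO-RA, and 6.82, 20.0 and 23.9 CPM in KO-O2 retinas. The 3 lens-bearing room-air retinas were at 62.4 to 204 CPM and the other 3 room-air retinas at 2.97 to 4.32 CPM. With all libraries the log2 fold change with hyperoxia was -0.79 ± 1.57 in WT and -2.05 ± 1.63 in GSDMD-KO retinas. Without the 3 libraries it was 3.32 ± 0.87 (adjusted p = 0.122) and 2.43 ± 0.63 (adjusted p = 0.124), so neither fit passed and the direction differed between them.

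**Figure D4:**
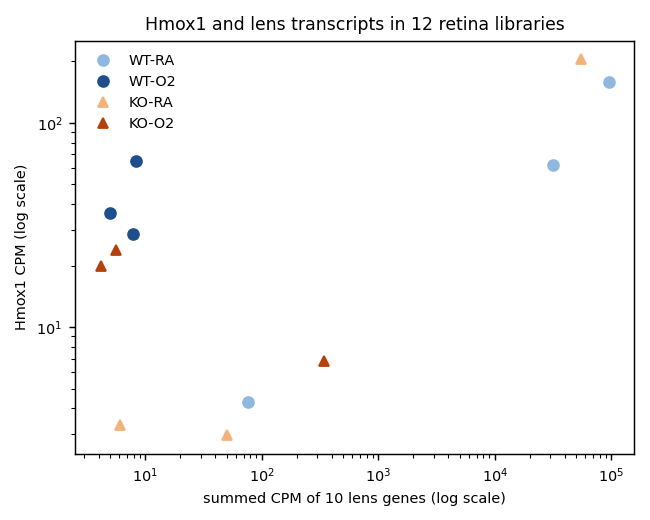
Hmox1 level (vertical axis, CPM, log scale) against the summed level of 10 lens genes (horizontal axis, CPM, log scale) in 12 retina libraries, 1 point per mouse. The 3 room-air retinas with lens sums of 31900 to 95800 CPM have Hmox1 at 62.4 to 204 CPM, and the other 3 room-air retinas lie at 2.97 to 4.32 CPM, below all hyperoxic retinas.

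Nfe2l2 was the regulator that passed in the retina. It lay at 21.6, 22.7 and 27 CPM in WT-RA and 31.1, 31.3 and 34.3 CPM in WT-O2 retinas, without overlap, with a log2 fold change of 0.44 ± 0.11 (adjusted p = 0.0679). Without the lens-bearing libraries it was 0.25 (adjusted p = 0.44), and leaving out any single WT mouse except WT-RA replicate 1, or KO-RA replicate 2, also ended the call, with adjusted p up to 0.22. In GSDMD-KO retinas it stood at 0.19 ± 0.11 (adjusted p = 0.39), and at 0.22 without the lens-bearing libraries (adjusted p = 0.399).

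Prdx6 and Gstp1 were lower after hyperoxia in WT retinas. Prdx6 lay at 174, 216 and 270 CPM in WT-RA and 148, 157 and 159 CPM in WT-O2 retinas, and Gstp1 at 203, 252 and 272 CPM and 137, 173 and 175 CPM. Neither pair of groups overlapped. The log2 fold change of Prdx6 was -0.51 ± 0.14 (adjusted p = 0.091), or -0.81 without the lens-bearing libraries (adjusted p = 0.044). That of Gstp1 was -0.58 ± 0.14 (adjusted p = 0.0498), or -0.64 without them (adjusted p = 0.0955). Summed with its copies, Gstp1 no longer passed (-0.43, adjusted p = 0.22). The Prdx6 call was lost without any 1 mouse of the 12 except WT-RA replicate 2 (adjusted p up to 0.26), and the Gstp1 call without WT-RA replicate 1 or 3 or any 1 of the WT-O2 mice (up to 0.17).

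Metallothionein levels were higher in every hyperoxic retina than in the room-air retinas of the same genotype. Mt1 lay at 92.0, 131 and 244 CPM in KO-RA and 338, 339 and 418 CPM in KO-O2 retinas, and at 163, 196 and 217 CPM in WT-RA and 236, 270 and 466 CPM in WT-O2 retinas. The log2 fold change was 1.23 ± 0.34 in GSDMD-KO (adjusted p = 0.0725) and 0.76 ± 0.34 in WT retinas (adjusted p = 0.28). Mt2 stood at 1.53 ± 0.47 (adjusted p = 0.105) and 1.28 ± 0.47 (adjusted p = 0.19). Without the lens-bearing libraries both passed in GSDMD-KO retinas, Mt1 at 1.72 ± 0.31 (adjusted p = 0.051) and Mt2 at 2.26 ± 0.33 (adjusted p = 0.035), while in WT retinas they stood at 0.72 (adjusted p = 0.371) and 1.52 (adjusted p = 0.126). Gstm1 passed there too, at 1.43 ± 0.21 (adjusted p = 0.028), compared with 1.20 ± 0.47 (adjusted p = 0.19) with all libraries. With all libraries, the Mt1 call was lost without KO-RA replicate 1 or 2 or any one of the KO-O2 mice, and without WT-O2 replicate 3, with adjusted p up to 0.24.

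Several genes with large responses in the lung did not pass in WT retinas in the edgeR fit of all libraries. Srxn1 lay at 48.3 to 72.4 CPM in WT-RA and 45.2 to 51.0 CPM in WT-O2 retinas, with a log2 fold change of -0.30 ± 0.16 (adjusted p = 0.351), or -0.58 ± 0.17 without the lens-bearing libraries (adjusted p = 0.134). Slc7a11 stood at 0.18 ± 0.35, Txnrd1 at 0.24 ± 0.09, Me1 at 0.07 ± 0.09 and Gclc at -0.38 ± 0.12, none of which passed in edgeR. Without the lens-bearing libraries Slc7a11 stood at 0.93 ± 0.42 (adjusted p = 0.289), Txnrd1 at 0.20, Me1 at 0.15 and Gclc at -0.22 (adjusted p = 0.39). DESeq2 called Gclc (adjusted p = 0.072). Nqo1 lay at 4.23, 4.40 and 4.88 CPM in WT-RA and 2.23, 2.40 and 2.48 CPM in WT-O2 retinas, without overlap, and its log2 fold change was -0.92 ± 0.34 (adjusted p = 0.183). It stood at -0.89 ± 0.23 without the lens-bearing libraries (adjusted p = 0.103), and passed at -0.91 ± 0.20 with only the compared groups in the edgeR fit (adjusted p = 0.085).

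**Figure D5:**
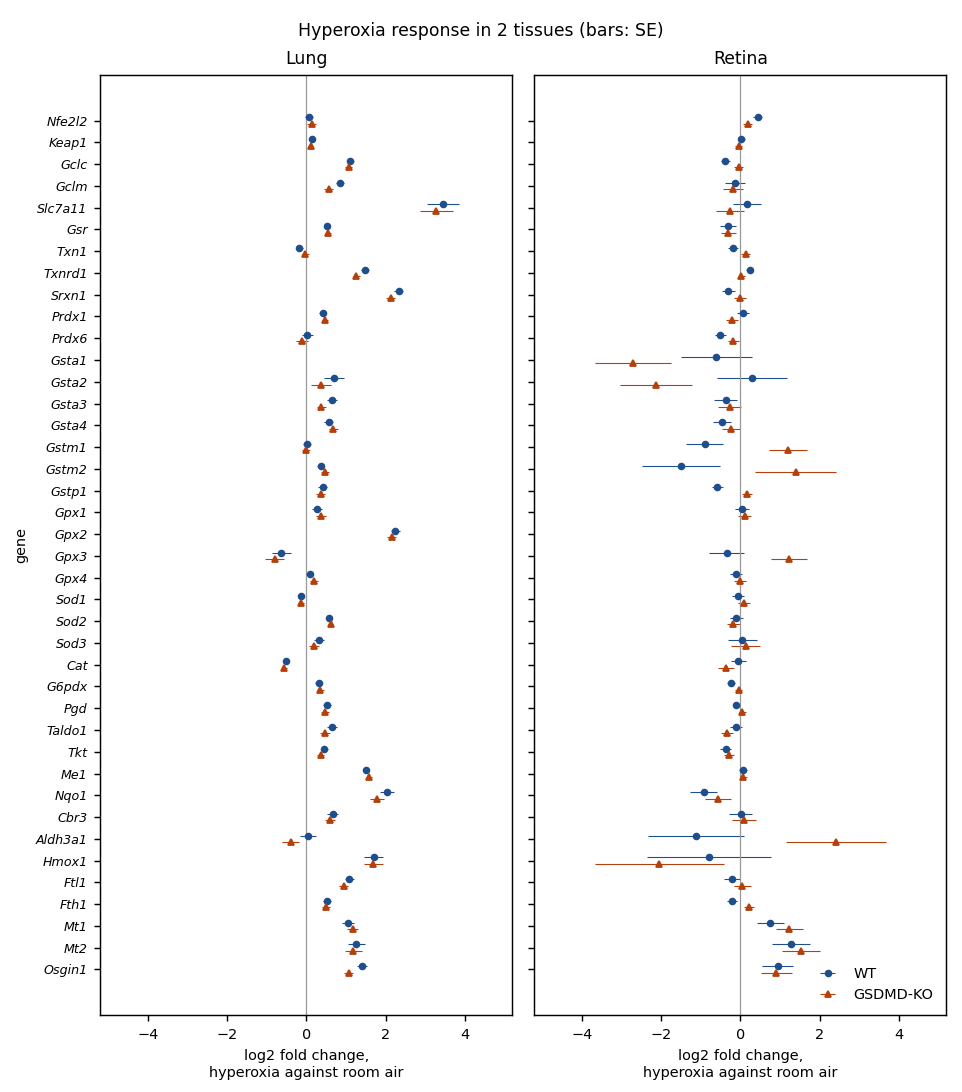
Log2 fold change with hyperoxia against room air (horizontal axes) for each member (vertical axis) in the lung and in the retina, with SE bars, circles for WT and triangles for GSDMD-KO mice. Lung values spread to the right up to 3.45, while retina values scatter around 0 with wide bars for Hmox1, Aldh3a1, Gsta1, Gsta2 and Gstm2.

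Across the 38 members tested in both tissues, the WT responses of lung and retina had the same sign in 17, with a Pearson r of 0.177 and a Spearman rho of 0.192. In GSDMD-KO mice they had the same sign in 16, with a Pearson r of -0.242 and a Spearman rho of -0.196. These are descriptions across genes, the 2 tissues came from separate tables with different exposures, and the difference between tissues was not tested.

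No member passed between genotypes in the retina. Between KO-O2 and WT-O2 retinas 1.27% of all genes passed, and 2 members, Nqo1 and Txnrd1, had an unadjusted p under 0.05 in edgeR, as did 12.6% of all genes. Nqo1 lay at 4.78, 4.79 and 5.34 CPM in KO-O2 retinas, above all 3 WT-O2 retinas, with a difference of 1.06 ± 0.34 on the log2 scale and a 95% interval from 0.33 to 1.80 (adjusted p = 0.208). Without the lens-bearing room-air libraries, none of which enters this contrast directly, the spread was smaller and Nqo1 passed at 1.06 ± 0.17 (adjusted p = 0.087). Between KO-RA and WT-RA retinas 0.00522% of all genes passed, and 6 members had an unadjusted p under 0.05 in edgeR, as did 12.7% of all genes. Gstp1 lay at 125, 140 and 159 CPM in KO-RA retinas, below the WT-RA retinas, with a difference of -0.78 ± 0.14 (adjusted p = 0.231), or -0.94 ± 0.17 without the lens-bearing libraries (adjusted p = 0.179). The interaction, passed by 0.00522% of all genes, gave 4 members with an unadjusted p under 0.05 in edgeR (10.6% of all genes), among them Gstp1 at 0.75 ± 0.19 (adjusted p = 0.233), or 0.91 ± 0.21 without the lens-bearing libraries (adjusted p = 0.252). DESeq2 called 0, 3 and 2 members in these comparisons, the 3 being Gstm2, Gstm1 and Gstp1, all lower in KO-RA, and the 2 being Gstm1 and Gstp1. Gstm1 and Gstm2 reached 137 and 21.1 CPM in the lens-bearing WT-RA replicate 3 against 33.8 to 39.5 CPM and 0.520 to 2.17 CPM in the other WT-RA retinas.

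Of the 81 pathway genes, 78 were tested in the retina. In WT retinas 7 passed, 5 higher and 2 lower, where 5.16% of all tested genes passed, 3.11% higher and 2.05% lower. In GSDMD-KO retinas 7 passed, all higher, where 7.82% of all genes passed, 4.38% higher and 3.44% lower. Cyba, the partner subunit of the NADPH oxidases, rose in both, by 0.92 ± 0.19 (adjusted p = 0.0318) and 1.00 ± 0.19 (adjusted p = 0.0194). In WT retinas Maff, a small MAF partner of NRF2, rose by 2.02 ± 0.36 and Nox4 by 1.66 ± 0.32. Nox4 lay at 1.56, 2.63 and 3.08 CPM in WT-RA and 6.84, 7.33 and 8.77 CPM in WT-O2 retinas, and in GSDMD-KO retinas it stood at 0.50 ± 0.31 (adjusted p = 0.394), with an interaction of -1.16 ± 0.43 (adjusted p = 0.371). In GSDMD-KO retinas the peroxiredoxin Prdx4 and the small MAF gene Mafk rose by 0.73 ± 0.19 and 0.80 ± 0.21. Without the lens-bearing libraries Nox4 still passed in WT retinas (2.28 ± 0.36, adjusted p = 0.0433) and Cyba in GSDMD-KO retinas (1.07 ± 0.24, adjusted p = 0.0839). The calls of Cyba (0.83, adjusted p = 0.208) and Maff (1.92, adjusted p = 0.161) in WT retinas and of Prdx4 (0.79, adjusted p = 0.123) and Mafk (0.89, adjusted p = 0.118) in GSDMD-KO retinas were lost, and Nox4 in GSDMD-KO retinas stood at 0.84 (adjusted p = 0.14). The 8 endothelial genes summed to 115 to 151 CPM in room-air and 202 to 275 CPM in hyperoxic retinas, and 10 microglial genes to 34.4 to 56.1 CPM and 78.5 to 122 CPM. The part of these cells in the higher Cyba and Nox4 was not tested.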

How the data were processed

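RNA-seq was performed on 12 lungs and 12 retinas, 3 mice per genotype and exposure. The deposited tables hold expected counts per Ensembl gene, which the authors made from paired-end reads with kallisto and tximport. The build is given as mm10 in the submitters' processing notes, while the supplementary methods name GRCm39, and the kallisto version is not given in the sources used here. In the lung 25.9% and in the retina 0.061% of values above 0 were whole (tolerance 1e-06), so the 2 tables may have been made differently, and retina counts may have been rescaled before deposit. Totals were similar in every library (28763661 to 29604254 in the lung and 24863257 to 29093035 in the retina), and a count of 3 was taken as the floor.

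Counts were rounded and each tissue was fitted apart in edgeR 4.0.16 (R 4.3.3, limma 3.58.1): filterByExpr, TMM scaling, a robust quasi-likelihood fit with 1 term per group over all 12 libraries, and Benjamini-Hochberg adjustment over all genes tested. The threshold was an adjusted p of 0.1. SEs were derived from the log2 fold change and the root of its F value, and intervals are 95% intervals from the fit. The procedure was checked on counts simulated from a common mean per gene and the estimated spread, with changes added in WT-O2. No simulated library was set apart by lens transcripts, so the check does not cover that difference between retina libraries. Alternatives were relative log expression scaling, DESeq2 1.42.0, no filter on low counts, an added 2-fold threshold, each mouse left out, summed copy families, only the compared groups in the fit and, chosen after seeing the data, the retina without 3 libraries rich in lens transcripts. No pair of same-group libraries agreed within sampling noise.

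Genes outside the list of 40 are named as follows: at most 3 pathway genes with the smallest p per tissue and comparison, Cybb, Nox4 and Nnt, the targeted gene, and copies of a member. The members and lists were chosen with earlier results of these data known. Each edgeR p-value sets a difference against the spread between mice, estimated over all 4 groups and in part shared across genes.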

Additional observations from a re-analysis of the deposited data

Results flagged for a closer look

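Several members had log2 fold changes with hyperoxia of opposite sign in lung and retina, with every hyperoxic mouse on one side of the room-air mice in each tissue. In WT mice these were Gclc (1.11 in the lung and -0.38 in the retina), Gstp1 (0.41 and -0.58), G6pdx (0.32 and -0.24), Tkt (0.45 and -0.37) and Nqo1 (2.04 and -0.92). In GSDMD-KO mice they were Tkt (0.36 and -0.29) and Gpx3 (-0.80 and 1.22). Of these retina values only that of Gstp1 passed in the edgeR fit of all retinas, and it no longer passed with its copies summed (adjusted p = 0.22) or with only the compared groups in the fit (0.11). DESeq2 also called Gclc (adjusted p = 0.072) and Tkt (0.058) in WT and Gpx3 (0.054) in GSDMD-KO retinas, and Nqo1 passed with only the compared groups in the fit (0.085). Without the lens-bearing libraries the WT retina values were -0.22 for Gclc, -0.64 for Gstp1, -0.39 for G6pdx, -0.61 for Tkt and -0.89 for Nqo1, and the GSDMD-KO values -0.33 for Tkt and 1.12 for Gpx3. Of these only Gstp1 passed (adjusted p = 0.0955). The difference between the tissues was not tested, since the tables were made separately and the exposures and ages at collection differed. Groups without overlap were common over all genes. In WT retinas 4600 of 19173 genes had none, against 11 of 39 members. In GSDMD-KO retinas 5020 genes had none, against 7 of 39 members. In the lung the shares over all genes were 49.8% in WT and 52.4% in GSDMD-KO mice.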

How the results depend on the processing

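All 26 members that rose in the lungs of both genotypes still passed in both under all 17 alternatives other than the added 2-fold threshold. With that threshold 12 members remained in WT and 11 in GSDMD-KO lungs, and 0 in WT retinas. With each mouse left out in turn, the number passing was 28 to 32 in WT and 28 to 31 in GSDMD-KO lungs, 0 for both genotype comparisons and the interaction in the lung, 0 to 4 in WT retinas, 0 to 3 in GSDMD-KO retinas, 0 to 1 between KO-O2 and WT-O2 retinas, and 0 for the other retina comparisons. DESeq2 called 5 members in WT retinas, 5 in GSDMD-KO retinas, 3 between room-air retinas and 2 in the retina interaction. With only the compared groups in the fit, 1 member passed in WT retinas (Nqo1, 0.085), where Nfe2l2 (0.11), Prdx6 (0.17) and Gstp1 (0.11) did not. In that fit 1 passed in GSDMD-KO retinas (Gstm1, 0.065), where Mt1 did not (0.14), and 1 between KO-O2 and WT-O2 retinas (Nqo1, 0.093). Without the low-count filter Keap1 (adjusted p = 0.19) and Gpx3 (0.13) no longer passed in WT lungs, nor did Prdx6 in WT retinas (0.12). Under that setting 0 members passed in GSDMD-KO retinas. With copy families summed 4 passed in GSDMD-KO retinas, which stand for 2 sums, Mt1 with Mt2 and Gsta1 with Gsta2. Without the lens-bearing libraries 3 passed in GSDMD-KO retinas and 1 between KO-O2 and WT-O2 retinas, and Gstm2 between room-air retinas reversed from -2.88 to 1.1. Apart from the choice of libraries and samples, the cause of these changes was not tested. No paired analysis was possible because the labels carry no replicate numbers shared between groups. Retina calls rest on adjusted p near the threshold and few libraries without lens.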
